A study of Homo sapiens with 6 samples.

Results

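The genes described here are the histone genes measured in polyadenylated RNA of HCCLM3 cells. They were chosen by name alone, as protein-coding genes whose symbol has a histone prefix, and the 67 described are among the 35856 genes in the deposited table. Of these, 61 are replication-dependent genes (symbols of the H2AC, H2BC, H3C and H4C series and H1-1 to H1-6), and 6 are variant genes (H1-10, H2AX, H2AZ1, H2AZ2, H3-3A and H3-3B). H1-10, a linker histone gene outside the clusters, was counted as a variant. RNA was sequenced from 3 libraries of cells that had received a vector carrying the long noncoding RNA LINC00862 and from 3 libraries of cells that had received the empty vector, named Empty below and NC in the labels. The HCCLM3 line is an established line of human liver cancer cells with high metastatic potential. The sources used here do not say whether the sequenced cells were transiently or stably transfected, or whether the 3 libraries of a group came from separate cultures, so the p-values measure the spread between these libraries, which may be technical.

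Histones are the proteins around which DNA is wrapped, with H2A, H2B, H3 and H4 in the core of the nucleosome and H1 on the linker. The replication-dependent genes lie in clusters, lack introns and are known for S phase mRNAs that end in a conserved stem-loop in place of a poly(A) tail. That stem-loop is bound by SLBP, and the U7 small nuclear ribonucleoprotein guides the cut that follows it. Variant genes lie outside the clusters, and most are expressed throughout the cell cycle and give ordinary polyadenylated mRNA. Some clustered genes are known to give polyadenylated mRNA too, by reading past the stem-loop to a downstream poly(A) signal. Because the RNA was selected with oligo(dT) beads, the levels below are those of polyadenylated histone RNA, and RNA that ends at the stem-loop was largely not sampled.

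The stem-loop was looked for in the transcripts of GENCODE 29 (GRCh38), to show which genes hold it and how far the annotated RNA runs past it. A match was a stem of 6 base pairs, G-T pairs allowed, that opens with GG and closes with CC around a loop of 4 bases, TTTC or TTTT. The sequences below are printed 5′ to 3′ on the strand of the gene, with stem and loop in capitals. They belong to genes with high levels or large rises, and to H2AC11 for its long annotated tail.

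H2BC21: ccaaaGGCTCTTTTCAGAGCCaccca
H2AC18: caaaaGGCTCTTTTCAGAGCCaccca
H2AC6: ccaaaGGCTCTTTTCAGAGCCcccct
H3C10: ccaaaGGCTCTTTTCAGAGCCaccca
H4C14: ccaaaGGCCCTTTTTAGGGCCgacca
H4C8: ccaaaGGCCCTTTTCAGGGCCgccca
H2AC11: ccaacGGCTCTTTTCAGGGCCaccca

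In order, the capitals lie at chr1:149886188-149886203 (minus strand), chr1:149842223-149842238 (minus), chr6:26124669-26124684 (plus), chr6:27810516-27810531 (plus), chr1:149833032-149833047 (plus), chr6:26285131-26285146 (minus) and chr6:27133515-27133530 (plus), each after the end of the coding sequence. Of 65 of these genes with a GENCODE 29 transcript, 23 replication-dependent genes had such a match, and none of the 6 variant genes did. The search does not find a stem-loop of other letters or one outside the annotated model, in either class. Among 70483 other protein-coding transcripts of 312 to 4137 bases, 95 (0.135%) held one. In 16 of the 23 genes, an annotated transcript ran more than 100 bases past the loop, for example 1729 bases in H2BC21, 1128 in H2AC6 and 1761 in H2AC11. In 7 genes every transcript with a loop ended within 100 bases of it, for example 35 bases past it in H2AC18. For the other 38 replication-dependent genes, many annotated models stop at the end of the coding sequence or have no entry, so the lack of a match says only that these letters are not in the model.

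Counts of reads per gene lay between 58241123 and 68229070 in total per library and were compared by the quasi-likelihood test of edgeR, and p-values were adjusted by Benjamini-Hochberg over the 20741 genes that passed a filter on low counts. A gene was called at a false discovery rate of 0.05. Levels are given as FPKM, fragments corrected for library depth and for the length of the annotated transcript. Comparisons between genes thus depend on how well the annotated model fits the RNA. The groups differed widely, and 64.2% of all tested genes were called, 34.4% higher and 29.8% lower in LINC00862. FPKM did not overlap between the groups for 71.1% of tested genes. LINC00862 itself had counts of 11, 21 and 6 in Empty and 145, 121 and 76 in LINC00862. Marker genes of cell identity moved with the groups as well. Of 7 epithelial markers, 6 were higher in LINC00862. EPCAM had 86, 101 and 80 counts in Empty and 31485, 23775 and 26320 in LINC00862, with a mean FPKM 291.9 times as high, and the ratio was 348.4 for ESRP1, 107.2 for KRT19 and 85.6 for CDH1. The list's summed CPM (counts per 1000000 counts of the library) lay between 970.4 and 1413 in Empty and between 1965 and 2276 in LINC00862, and most of the Empty sum came from the keratin genes KRT8 and KRT18. Among 8 mesenchymal markers 3 were lower and 2 higher, and their sum lay between 3140 and 3734 CPM in Empty and between 129.6 and 175.2 CPM in LINC00862. The mean FPKM of VIM was 142.9 times and that of THY1 417.9 times as high in Empty, whereas COL1A1 was higher in LINC00862 (log2 fold change 2.32). Hepatocyte and hepatoma markers went both ways, with 6 of 8 tested genes higher and 2 lower in LINC00862. ALB had counts of 0, 0 and 7 in Empty and 423, 394 and 282 in LINC00862, and TTR was at 0 in each Empty library. SERPINA1 had 363, 393 and 501 counts in Empty and 29, 48 and 24 in LINC00862, and AFP had 14, 24 and 30 in Empty and 0 in each LINC00862 library. The list summed to 16.4 to 18.9 CPM in Empty and 2981 to 3450 CPM in LINC00862, nearly all of the latter from FGB (546, 485 and 492 counts against 199889, 152678 and 153773) and TF (69, 55 and 74 against 34815, 28848 and 21337). Endothelial markers summed to 8.76 to 14.4 CPM in Empty and 30.7 to 44.2 CPM in LINC00862 (1 of 3 higher), and leukocyte markers to 9.20 to 9.84 CPM and 20.9 to 34.5 CPM (2 of 4 higher). All 8 mitochondrially encoded genes tested were higher in LINC00862. Differences of this size are also found between different cell populations. A response to LINC00862 and a difference in the cells themselves cannot be told apart in this design, for these markers or for any histone value given here.

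The variant genes fell and the replication-dependent genes rose. Of the 6 variant genes, 5 were lower in LINC00862 and 0 were higher, with a median log2 fold change of -1.65, against 29.8% lower among all tested genes and a median of 0.11. Of 41 replication-dependent genes that passed the filter, 33 were higher and 0 were lower, with a median of 2.67, against 34.4% higher among all tested genes. With H3C3, whose Empty counts are all 0, set to its lower bound, that median stayed at 2.67. At an unadjusted p under 0.05, 34 replication-dependent genes were higher and 0 lower, and 0 variant genes were higher. DESeq2 and limma-trend called 0 replication-dependent genes lower and 0 variant genes higher. A gene that is high only in LINC00862 could pass the filter through that group alone, so the 33 of 41 are a description of the genes that passed, not of all 61. Of the 23 replication-dependent genes that had 10 counts or more in each of the 6 libraries, 20 were higher and 0 lower.

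**Figure D1:**
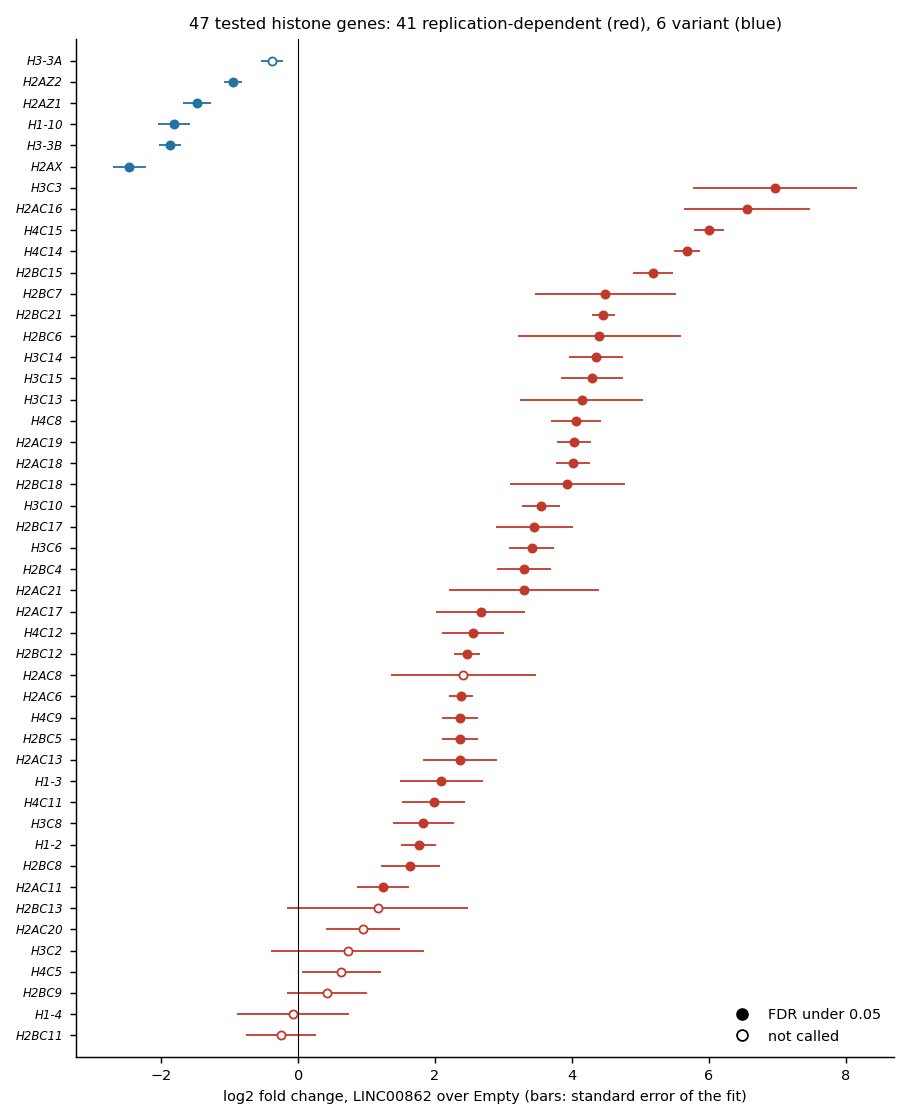
Fitted log2 fold change (x axis) of each of the 47 tested histone genes (y axis), with the standard error of the fit; filled points were called at a false discovery rate of 0.05. All 6 variant genes lie left of 0, and 39 of the 41 replication-dependent genes lie right of it, the exceptions being H1-4 at -0.08 and H2BC11 at -0.25.

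The 20 replication-dependent genes that did not pass the filter held at most 32 counts in any library. Their mean CPM was higher in LINC00862 for 10 of them and higher in Empty for the other 10, and 6 were at 0 in each Empty library. With every gene of at least 1 count in the fit, 1 of these 20 was called, H2AC4, with counts of 0 in each Empty library and 16, 2 and 8 in LINC00862; it is named after its values were seen. Over all 61 genes, mean CPM was higher in LINC00862 for 49 and in Empty for 12. Each LINC00862 library lay above each Empty library in CPM for 37 of the 61, and below for 1. Lack of overlap was common in these data, with 71.1% of all tested genes without overlap in FPKM. Of the 41 tested replication-dependent genes, 34 had no overlap in FPKM.

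In sum, the replication-dependent genes gave 42.0, 50.1 and 50.3 CPM in Empty and 409.8, 419.7 and 370.7 CPM in LINC00862, with no overlap. The ratio of the group means was 8.43 in CPM and 6.66 in summed FPKM. The 6 variant genes gave 2177, 2634 and 2796 CPM in Empty and 843.7, 803.2 and 842.0 CPM in LINC00862, a mean 3.06 times as high in Empty. Replication-dependent genes thus held 1.89%, 1.87% and 1.77% of the counts of these 67 genes in Empty and 32.7%, 34.3% and 30.6% in LINC00862. No test was run on these sums, since they are taken over chosen genes. Some replication-dependent genes, called identical copies below, had an annotated transcript identical over all compared bases: H2AC18 and H2AC19, H3C14 and H3C15, and H4C14 and H4C15. For H4C14 and H4C15 this holds for transcripts of 610 bases, and their longest transcripts differ in length (1547 and 1694 bases). How reads shared by such copies were counted is not stated in the sources used here. The sums, and the ratios and shares taken from them, may therefore hold the same reads under both copies.

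**Figure D2:**
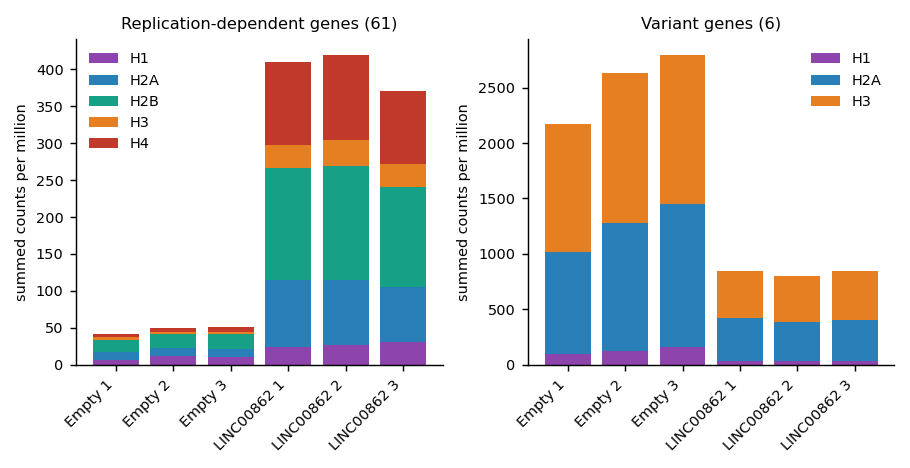
Summed CPM (y axis, from 0, on different scales in both panels) of the 61 replication-dependent genes and the 6 variant genes in each library, stacked by histone type. The replication-dependent bars lie between 42.0 and 50.3 in Empty and between 370.7 and 419.7 in LINC00862, while the variant bars lie between 2177 and 2796 in Empty and between 803.2 and 843.7 in LINC00862.

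H4 had the largest ratio among the replication-dependent types and H1 the smallest. H4 genes summed to 4.49, 5.98 and 6.58 CPM in Empty and 112.1, 115.3 and 99.2 CPM in LINC00862, a ratio of 19.2. The ratio was 9.46 for H3, 8.28 for H2B, 7.38 for H2A and 2.97 for H1. Most H4 counts in each LINC00862 library came from the identical copies H4C14 and H4C15. Their log2 fold changes were 5.68 and 6.01, against 0.63 to 4.06 for the other tested H4 genes. The first place of H4 thus leans on these copies, and its ratio without them was not computed. Within H3, the replication-dependent share of summed FPKM was 1.67%, 1.17% and 0.756% in Empty and 22.1%, 24.1% and 21.7% in LINC00862. For H2A it was 2.76% to 3.04% in Empty and 44.0% to 49.5% in LINC00862. These shares depend on the annotated transcript length, and the replication-dependent part was smaller in CPM, which has no length correction. In LINC00862 the mean sums of replication-dependent and variant genes were 32.6 and 425.9 CPM for H3. For H2A they were 83.9 and 371.1 CPM. In each library of LINC00862, the variants still held the larger part of H2A and H3 FPKM.

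The variant H2A genes include the highest and the most strongly lowered of the class. H2AX (ENSG00000188486, chr11:119093854-119095467), whose phosphorylated product marks DNA double-strand breaks, had 54.1, 65.9 and 90.6 FPKM in Empty and 12.3, 10.5 and 11.1 FPKM in LINC00862. Each LINC00862 library lay far below the lowest Empty library, with a log2 fold change of -2.47 (standard error 0.24, adjusted p = 2.11e-05). H2AZ1, one of the genes for H2A.Z, a variant placed at promoters and regulatory elements, had 235.6, 319.1 and 345.0 FPKM in Empty and 100.5, 91.6 and 95.6 FPKM in LINC00862 (log2 fold change -1.48, standard error 0.20, adjusted p = 0.000211). It was the highest of the 67 genes in both groups. H2AZ2, the other H2A.Z gene, fell less, from 29.1, 28.4 and 30.4 FPKM to 14.2, 13.3 and 12.5 FPKM (log2 fold change -0.96, standard error 0.13, adjusted p = 0.000216).

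Both genes for H3.3, the replacement H3 that is deposited outside S phase, encode the same protein, and their fitted changes differed in size. H3-3B had 138.0, 156.7 and 158.7 FPKM in Empty and 37.3, 35.8 and 37.0 FPKM in LINC00862 (log2 fold change -1.87, standard error 0.16, adjusted p = 1.27e-05). H3-3A had 40.1, 49.2 and 44.1 FPKM in Empty and 29.4, 30.0 and 31.7 FPKM in LINC00862. Its groups did not overlap, but it was not called (log2 fold change -0.38, standard error 0.16, adjusted p = 0.0653). Without Empty replicate 1 it was called, with a log2 fold change of -0.49, and it was called with scaling by library size only (-0.54) and with limma-trend. The difference between both genes was not tested.

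Among variant linker histones H1-10, which encodes H1.X, fell as well. It had 57.4, 73.9 and 95.5 FPKM in Empty and 19.01, 17.4 and 20.8 FPKM in LINC00862 (log2 fold change -1.82, standard error 0.23, adjusted p = 0.000139). The order of the variants by Empty level was H2AZ1, H3-3B, H1-10, H2AX, H3-3A and H2AZ2, and the ranges of H1-10 and H2AX overlapped. H1-10, H2AZ1 and H3-3A overlap another gene on the opposite strand, and whether counting used the strand is not stated in the sources used here.

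**Figure D3:**
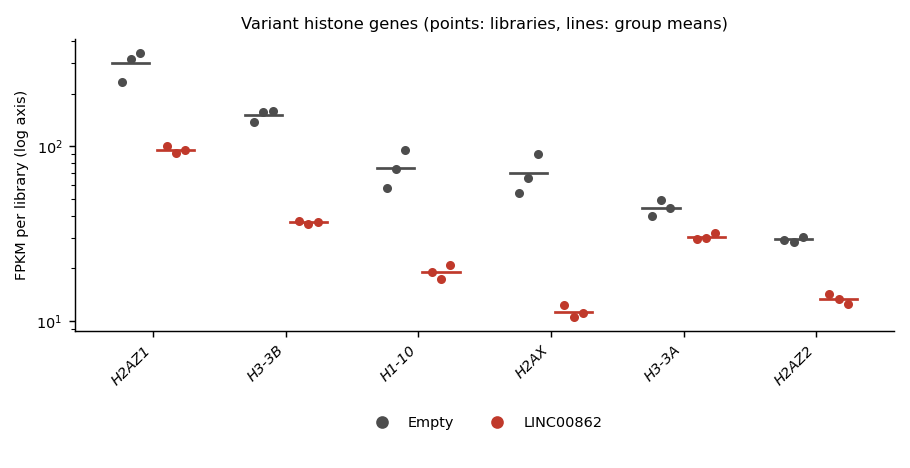
FPKM per library (y axis, log scale) of the 6 variant histone genes, ordered by mean level; points are libraries and lines are group means. In each gene the 3 LINC00862 points lie below the 3 Empty points, with the smallest gap for H3-3A, whose lowest Empty value is 40.1 and highest LINC00862 value 31.7.

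The replication-dependent genes were low in Empty, and most stayed below the variants in LINC00862. The highest mean was 14.4 FPKM in Empty, below the 29.3 FPKM of the lowest variant gene, and 71.9 FPKM in LINC00862. In LINC00862, where the variants had fallen, 8 of the 61 genes had a mean at or above the 11.3 FPKM of the lowest variant, H2AX, and 34 stayed below 1 FPKM. A mean of at least 1 FPKM was reached by 10 of the 61 genes in Empty and by 27 in LINC00862. By cluster, all 11 genes of the chromosome 1 cluster passed the filter and 10 were higher, with a median log2 fold change of 4.14. On chromosome 6, 12 of 17 tested genes before position 27000000 were higher (median 2.36) and 11 of 13 after it (median 2.47). Another 12 genes before this position and 8 after it did not pass the filter. Among all 20741 genes tested, 34.4% were higher, and a gene could pass the filter through LINC00862 alone. The chromosome 1 cluster gave 23.7%, 20.6% and 23.0% of the replication-dependent counts in Empty and 56.7%, 56.8% and 53.9% in LINC00862. All of the identical copies named above lie in this cluster, so its share may hold the same reads under both copies.

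Among H2B genes, which pair with H2A in the nucleosome, H2BC12 (ENSG00000197903, chr6:27146361-27146855) was the highest replication-dependent gene by mean FPKM. By counts in LINC00862, H2BC12 (2915, 2619 and 1946) lay below H2BC21 (4879, 4247 and 3796), which has a longer model. H2BC12 is described first. It had 12.4, 15.5 and 15.5 FPKM in Empty and 77.1, 80.1 and 58.6 FPKM in LINC00862 (log2 fold change 2.47, standard error 0.19, adjusted p = 5.11e-06). H2BC21 (ENSG00000184678, chr1:149884459-149886652), whose annotated transcript runs far past the loop printed above, had 1.71, 1.18 and 1.43 FPKM in Empty and 29.1, 29.3 and 25.8 FPKM in LINC00862 (log2 fold change 4.46, standard error 0.17, adjusted p = 1.02e-07). These values sit in narrow ranges that lie many fold apart. H2BC5 had 1.77, 2.09 and 1.499 FPKM in Empty and 9.04, 7.04 and 8.37 FPKM in LINC00862 (log2 fold change 2.36). H2BC4 had 0.478, 0.300 and 0.688 FPKM in Empty and 3.89, 4.19 and 5.18 FPKM in LINC00862 (log2 fold change 3.30). H2BC15 had counts of 35, 17 and 30 in Empty and 999, 922 and 869 in LINC00862 (log2 fold change 5.19), but its annotated span of chr6:27837760-27865798 covers H2AC15 and H2AC16, so reads of these genes may be shared. H2BC7 rested on few counts, 0, 0 and 4 in Empty against 24, 33 and 34 in LINC00862.

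H2BC11, an H2B gene also known to give polyadenylated mRNA, was not called. It had 0.745, 1.70 and 2.45 FPKM in Empty and 1.15, 1.87 and 0.742 FPKM in LINC00862, with overlapping groups (log2 fold change -0.25, standard error 0.51, adjusted p = 0.681). Without Empty replicate 3 its log2 fold change was 0.20.

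The highest H2A genes were H2AC18 (chr1:149842188-149842736) and H2AC19 (chr1:149851061-149851624), whose transcripts were identical over 549 compared bases. H2AC18 had counts of 82, 102 and 133 in Empty and 1888, 1637 and 1370 in LINC00862, and H2AC19 had 83, 102 and 137 in Empty and 1920, 1665 and 1401 in LINC00862. The near-equal counts leave the level of each copy uncertain, while the log2 fold changes were 4.02 and 4.03 (standard error 0.25 each). H2AC6 had 2.99, 2.83 and 2.35 FPKM in Empty and 14.5, 12.4 and 11.1 FPKM in LINC00862 (log2 fold change 2.38, standard error 0.18, adjusted p = 4.74e-06). H2AC11, whose annotated transcript runs furthest past the loop among those given above, had 0.509, 0.228 and 0.309 FPKM in Empty and 0.587, 0.814 and 0.782 FPKM in LINC00862 (log2 fold change 1.24, standard error 0.38, adjusted p = 0.0181). It was not called without Empty replicate 2 (1.03) or without LINC00862 replicate 2 (1.20) or 3 (1.14). H2AC16 had 1 count in all Empty libraries together and 125 in LINC00862, a ratio of 133.5 after scaling with an exact 95% counting interval of 23.5 to 5313, and it lies inside the span of H2BC15.

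The H4 genes H4C14 and H4C15 are another pair of copies, identical over 610 compared bases, and they showed the largest rises among the histone genes that had 10 counts or more in each library. H4C14 (chr1:149832659-149839767) had 0.446, 0.347 and 0.393 FPKM in Empty and 18.7, 21.4 and 15.9 FPKM in LINC00862 (log2 fold change 5.68, standard error 0.19, adjusted p = 5.08e-08). For H4C15 (chr1:149854045-149861148) the values were 0.302, 0.337 and 0.408 FPKM and 22.7, 20.6 and 18.4 FPKM (log2 fold change 6.01, standard error 0.22, adjusted p = 8.33e-08). Their spans overlap the H3 genes H3C14 and H3C15 on the opposite strand, which were also higher (log2 fold changes 4.35 and 4.29) and are identical to each other over 1656 bases. H4C9 rose from 1.16, 1.58 and 1.75 FPKM to 7.22, 6.89 and 6.57 FPKM (log2 fold change 2.36), and H4C8 from 0.240, 0.207 and 0.481 FPKM to 4.28, 5.13 and 4.95 FPKM (log2 fold change 4.06).

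H3C10 was the highest replication-dependent H3 gene, with 1.15, 0.606 and 0.822 FPKM in Empty and 7.75, 9.52 and 9.32 FPKM in LINC00862 (log2 fold change 3.55, standard error 0.28, adjusted p = 6.27e-06). H3C3 had 0 counts in each Empty library and 12, 12 and 20 in LINC00862, at least 15.7-fold higher against a floor of 3 counts over the group. Among linker histones, H1-2 (chr6:26055740-26056470) had 7.44, 13.0 and 11.4 FPKM in Empty and 28.7, 31.7 and 35.8 FPKM in LINC00862 (log2 fold change 1.76, standard error 0.26, adjusted p = 0.00032). It was the only linker gene of the replication-dependent class above 1 FPKM on average in either group.

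**Figure D4:**
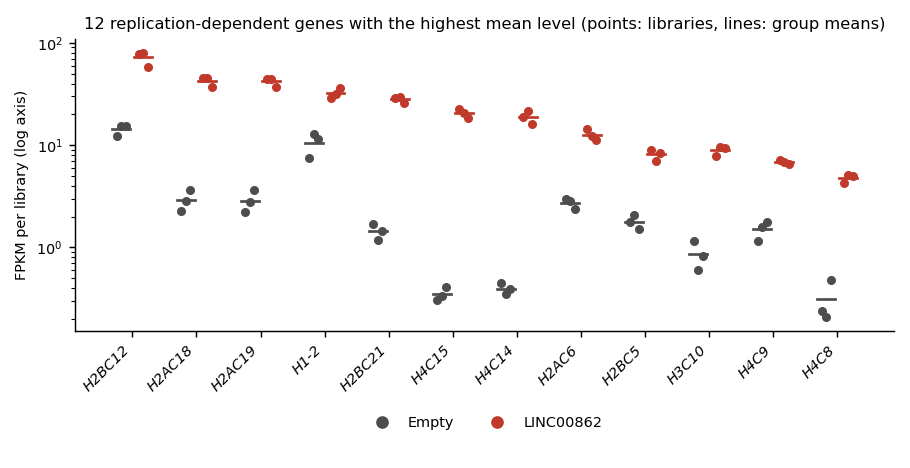
FPKM per library (y axis, log scale) of the 12 replication-dependent genes with the highest mean level; points are libraries and lines are group means. The 3 LINC00862 points lie above the 3 Empty points for each gene, with the widest gaps for H4C14 and H4C15, which stayed below 0.5 FPKM in Empty.

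The clustered genes known to give polyadenylated mRNA, a list of 7 written from general knowledge, are given beside the whole class. Of H1-2, H2AC6, H2BC4, H2BC5, H2BC11, H2BC12 and H2BC21, 6 were higher, with a median log2 fold change of 2.38. The median of all 41 tested genes of the class, these 7 included, was 2.67. These 7 genes gave 61.03%, 63.5% and 61.8% of all replication-dependent counts in Empty and 43.6%, 42.7% and 43.8% in LINC00862. Grouped by the stem-loop, the 16 genes whose annotated RNA runs more than 100 bases past the loop all passed the filter, 14 were higher, and the median log2 fold change was 4.0. Their median level was 0.277 FPKM in Empty and 2.76 FPKM in LINC00862. Of the 7 genes that end within 100 bases of the loop, 6 were tested and 4 were higher, with a median log2 fold change of 2.39. Their median levels were 0.401 and 1.898 FPKM. The 38 genes with no match in their models had median levels of 0.120 and 0.216 FPKM, and 15 of the 19 tested were higher, with a median log2 fold change of 2.55. Among all 20741 genes tested, 34.4% were higher in LINC00862. A gene could pass the filter through LINC00862 alone, so these counts describe only the genes that passed. No test compared these groups, and the length of the annotated model enters the FPKM. The group of 16 counts the identical copies H3C14 and H3C15, and H4C14 and H4C15, as separate genes. The group of 7 does so for H2AC18 and H2AC19.

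Many H2A and H2B genes lie head to head and share the stretch between their starts. Among 10 divergent pairs of replication-dependent genes that start within 1000 bases, mostly an H2A with an H2B gene, both genes were higher in 2 pairs, H2BC4 with H2AC6 (log2 fold changes 3.30 and 2.38, starts 219 bases apart) and H2AC17 with H2BC17 (2.67 and 3.45, 240 bases apart). The pairs that hold H2AC7, H2AC12, H2AC14 with H2BC14, or H3C12 could not have both genes called, since these genes were not tested. In the pair of H2BC21 and H2AC20, which start 266 bases apart, H2BC21 rose 4.46 on the log2 scale, while H2AC20 had 0.511, 2.01 and 2.20 FPKM in Empty and 2.77, 3.22 and 2.35 FPKM in LINC00862 and was not called (log2 fold change 0.95, adjusted p = 0.150). Next to H2BC12, the highest replication-dependent gene by mean FPKM, H2AC12 had counts of 0, 12 and 4 in Empty and 0 in each LINC00862 library.

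Promoter sequences from RefSeq (GRCh38.p14, 250 bases before to 50 after the start) were found for 62 of the 67 genes, 56 replication-dependent and 6 variant. They were searched on both strands for 4 motifs: the octamer ATTTGCAT, bound by OCT1 (POU2F1), the CCAAT box, the TATA box as TATAAA, and an E2F-type site as TTTCGCGC. The octamer was in 13 of 16 H2B and 10 of 14 H2A promoters, in 1 of 10 H3 promoters and in no H1 or H4 promoter, against 1.77% of all 35116 promoters. The H3 match is that of H3C4, whose printed window (chr6:26199294-26199453) is the same as that of H2AC7. In the deposited table H3C4 lies at chr6:26196784-26197286, so 1 match was counted for both genes. CCAAT was in 48 of 56 replication-dependent promoters (34.6% of all), the TATA letters in 37 of 56 (11.5% of all) and the E2F letters in 11 of 56 (0.515% of all). Of the 6 variant promoters, 5 held CCAAT, 4 the TATA letters, 1 the octamer and none the E2F letters. Neighbouring H2A and H2B genes share part of their windows and may share a match.

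The 160 bases before the start are shown for 3 replication-dependent genes with high levels or large rises and for the variant that holds the octamer, with octamer, CCAAT and TATA letters of either strand in capitals.

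H2BC12: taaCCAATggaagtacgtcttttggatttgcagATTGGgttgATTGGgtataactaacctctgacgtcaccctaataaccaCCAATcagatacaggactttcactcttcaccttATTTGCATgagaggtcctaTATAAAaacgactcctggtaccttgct
H2BC21: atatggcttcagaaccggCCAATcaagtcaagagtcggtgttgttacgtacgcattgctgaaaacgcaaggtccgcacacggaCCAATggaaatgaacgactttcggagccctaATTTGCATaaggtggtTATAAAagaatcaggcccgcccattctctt
H4C14: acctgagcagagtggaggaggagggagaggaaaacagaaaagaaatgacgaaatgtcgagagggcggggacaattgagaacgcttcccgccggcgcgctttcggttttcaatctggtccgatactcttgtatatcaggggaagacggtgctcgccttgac
H3-3B: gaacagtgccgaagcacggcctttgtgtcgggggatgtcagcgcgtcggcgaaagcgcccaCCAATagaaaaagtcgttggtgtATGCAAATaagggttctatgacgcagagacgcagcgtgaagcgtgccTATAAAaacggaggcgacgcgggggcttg

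These lie at chr6:27146859-27147018 (minus strand), chr1:149886683-149886842 (minus), chr1:149832497-149832656 (plus) and chr17:75779780-75779939 (minus). H2BC12 and H2BC21 carry all 3 kinds of letters in the same order before the start, and H4C14, with one of the largest rises, carries none in this stretch. H3-3B carries all 3 and fell. A match is a description of these letters, not a bound site, and POU2F1 itself was not called (log2 fold change -0.60, adjusted p = 0.0829).

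Genes listed for the 3′ end and transcription of replication-dependent histone mRNA, some of which act on ordinary mRNAs, were mostly lower. Of 23 listed genes, 13 were lower, 3 higher and 7 not called, with a median log2 fold change of -0.75, against 29.8% lower among all tested genes. SLBP, which binds the stem-loop, had counts of 7480, 7804 and 7253 in Empty and 2989, 2565 and 2736 in LINC00862 (log2 fold change -1.35, standard error 0.14, adjusted p = 3.81e-05). The U7-specific LSM10 and LSM11 fell by 0.80 and 0.98 on the log2 scale, while ZNF473, a zinc finger protein that binds the U7 complex, was 0.60 higher (adjusted p = 0.0102). CASP8AP2, also named FLASH, had counts of 2727, 1689 and 996 in Empty and 538, 588 and 627 in LINC00862 (log2 fold change -1.49, adjusted p = 0.00238). NPAT, the coactivator of the histone clusters, fell by 1.09 and HINFP, an activator of H4 genes, by 0.90.

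Of the listed genes that act in the cleavage of ordinary mRNAs, CSTF2 fell by 1.36, CPSF3, the nuclease, by 0.55 and CLP1 by 1.18. By contrast PCF11, which couples cleavage to the end of transcription, rose by 1.5 (adjusted p = 5.22e-05). CPSF2 was 0.48 higher, close to the threshold (adjusted p = 0.0469). SRRT fell by 1.58, the cap-binding genes NCBP1 and NCBP2 by 0.75 and 0.99, and ERI1, an exonuclease that trims histone mRNA, by 0.91. SYMPK, PAPOLA, UPF1, TUT4, TUT7 and MBLAC1 were not called, with log2 fold changes of 0.09, -0.06, -0.18, -0.48, -0.30 and -0.46.

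**Figure D5:**
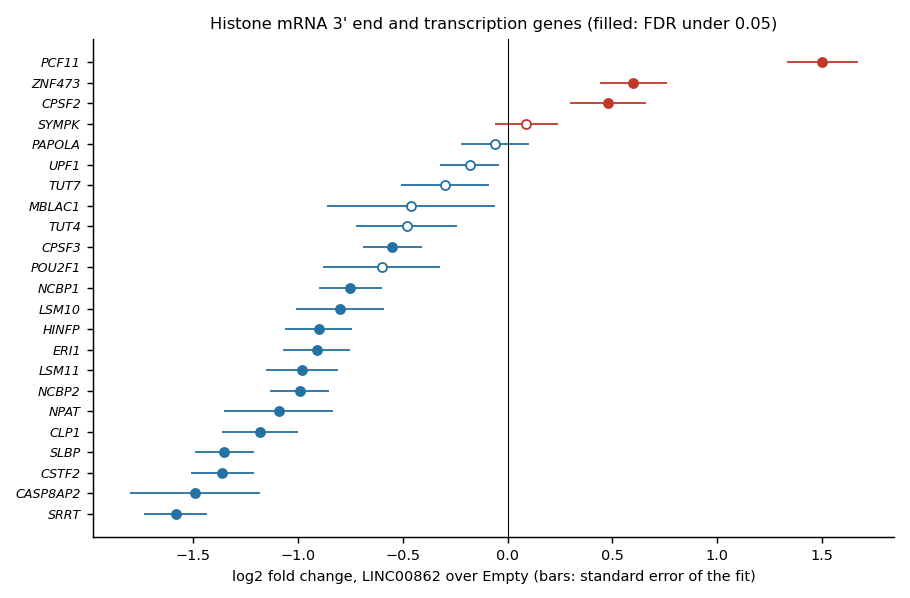
Fitted log2 fold change (x axis) with its standard error for the 23 genes listed for histone mRNA 3′ end formation and transcription (y axis). Filled points were called at a false discovery rate of 0.05. The 13 called genes on the left run from SRRT at -1.58 to CPSF3 at -0.55, and the 3 called genes on the right are PCF11, ZNF473 and CPSF2.

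Genes of S phase, when replication-dependent histone genes are most active, were mostly lower in LINC00862, opposite to those histone genes in this RNA. Of 22 listed genes, 19 were lower and 1 was higher, with a median log2 fold change of -1.80, against 29.8% lower and 34.4% higher among all tested genes and a median of 0.11. TYMS, thymidylate synthase, fell by 3.20 and CCNA2, cyclin A2, by 2.87, while CCNE1, cyclin E1, was 1.04 higher. Of 26 histone chaperones and deposition factors, 17 were lower, 6 higher and 3 not called, with a median of -0.86, against the same shares of all genes. NASP, a carrier of H3 and H4 and of linker histones, had 14286, 16054 and 16960 counts in Empty and 2488, 2196 and 2176 in LINC00862 (log2 fold change -2.70), and the replication-coupled CHAF1B fell by 2.50. VPS72, which handles H2A.Z, rose by 2.02 and SRCAP, the enzyme that exchanges it into chromatin, by 1.52, while H2AZ1 and H2AZ2 were lower.

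RNAs without a poly(A) tail were examined beside the histones, since oligo(dT) beads select against them as well. The 20 listed RNAs summed to 9.98, 59.8 and 10.3 CPM in Empty and 21.9, 16.9 and 18.01 CPM in LINC00862. Empty replicate 2 stood apart, with RN7SK counts of 45, 639 and 56 in Empty against 264, 208 and 160 in LINC00862, and RPPH1 counts of 3, 253 and 7 against 21, 63 and 24. The summed replication-dependent histone genes had 50.1 CPM in that library, against 42.0 and 50.3 CPM in the other Empty libraries. Single genes with few counts did stand apart there, such as H4C3 with counts of 4, 32 and 2 in Empty and H3C2 with 6, 26 and 0. With at least 10 counts and more than 2 times the CPM of each other Empty library, 5 of the 61 genes stood apart in Empty replicate 2, 2 in replicate 1 and 3 in replicate 3, a count chosen after the values were seen. Of 7 tested RNAs, RMRP was lower (log2 fold change -3.19, standard error 1.02, adjusted p = 0.0214), and 6 were not called: RN7SK (-0.20), RN7SL1 (-0.19), RN7SL2 (-0.42), RPPH1 (-1.23), SNORD3A (0.02) and SNORA73B (-0.43). Without Empty replicate 2, RMRP was not called (-1.11), and 4 RNAs were higher, RN7SK by 2.15, RN7SL1 by 0.95, RN7SL2 by 1.39 and RPPH1 by 2.93. In the same fit 31 replication-dependent histone genes were higher and 0 lower, with a median of 2.78, and their summed ratio was 8.67. The part of RNA without a poly(A) tail in the histone values was not tested beyond these counts.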

How the data were processed

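The libraries, 3 per group, were made from RNA selected with oligo(dT) beads, with dUTP strand marking and molecular identifiers, and sequenced as read pairs. The submitters' processing notes name cutadapt 1.9, HISAT2 2.0.4, UMI-tools, StringTie 1.3.4d, DESeq2, edgeR and the build hg38, without their order. The authors deposited the raw count of reads of each gene in each library, and FPKM, scaled by the authors for transcript length and mapped fragments.

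Counts were tested with edgeR 4.0.16 in R 4.3.3 (filterByExpr, TMM scaling, quasi-likelihood test, Benjamini-Hochberg adjustment over all 20741 genes tested, threshold 0.05), with no covariate. With 3 libraries against 3, an exact two-sided permutation test of 1 gene cannot give a p below 0.1. The floor for a group without counts was 3 counts over the group, and floors and intervals cover counting error only. Total counts were 58241123 to 68229070. Named genes were all variants, the 12 replication-dependent genes with the highest mean FPKM, the 6 largest rises (no falls were called), all members of the lists of polyadenylated clustered genes and of 3′ end genes, the tested RNAs without a poly(A) tail, and up to 2 rises and falls of other lists. Other genes are named for an overlap, a shared promoter or a cluster, after their values were seen. Members and lists were chosen with earlier results of these data known. Alternatives were DESeq2 1.42.0, limma-trend (limma 3.58.1) on log2(FPKM + 1) and log2(FPKM + 0.1), other scalings and filters, a replicate block and leaving out each library. The fits were tested on simulated counts. Sequences came from GENCODE 29 transcripts (GRCh38) and RefSeq (GRCh38.p14), read with Python 3.11.15 and pandas 2.3.3. 1 gene that the name rule finds is not reported here and was left out of counts and sums over members. Of the 67 genes, 30 have the coordinates of GENCODE 29 in the deposited table, and 2 are absent from GENCODE 29.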

Additional observations from a re-analysis of the deposited data

How the results depend on the processing

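Replication-dependent genes called higher numbered 29 to 34 and lower 0 under each alternative over the whole class, and variant genes called lower 5 or 6. The median log2 fold change of the replication-dependent class, 2.67, was 2.40 with DESeq2, 2.37 with every gene of at least 1 count, 2.49 by library size only, 2.89 by upper quartile, 2.17 on log2(FPKM + 0.1), 1.10 on log2(FPKM + 1), whose pseudocount shrinks low genes, 3.45 for members of at least 1 FPKM and 2.37 without members that overlap another gene. Over the members with at least 10 counts in every library, an alternative chosen after seeing the data, 20 were called, all higher, with a median of 2.47. Leaving out each library gave medians of 2.52 to 2.80. The variant median, -1.65, was -1.44 by upper quartile, which moved the median of all genes from 0.11 to 0.32, and 3 variants were called without members that overlap another gene. The summed ratio of 8.43 was 6.66 in FPKM and 6.53 without overlapping members, and that of the variants, 0.327, was 0.384 without H3-3B and 0.272 without overlapping members. Calls of H1-3, H2AC11, H2AC21 and H2BC6 were lost in at least 1 fit without a library (adjusted p 0.0507 to 0.0825), and H2AC8 was called without Empty replicate 3 (log2 fold change 4.22).

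Libraries that share a replicate number showed almost no shared deviation from their group means (correlations of the deviations -0.048, -0.027 and -0.006). These values do not tell whether the libraries were prepared in pairs. With a replicate block, 31 replication-dependent genes were higher and 0 lower (median 2.97), 5 variants were lower, and 0 RNAs without a poly(A) tail were called. That list, with 1 call, also had 0 with both limma-trend fits and at a threshold of 0.01, and 0 to 4 when a library was left out. SYMPK turned negative by library size only (-0.07) and on log2(FPKM + 0.1) and log2(FPKM + 1) (-0.09 and -0.08), UPF1 positive by upper quartile (0.03), PAPOLA positive by upper quartile (0.16) and without Empty replicate 1 (0.10, lowest -0.16 when a library was left out), and H2BC11 positive without Empty replicate 3 (0.20, with a lowest value of -0.62 when a library was left out). CPSF2 and ZNF473 lost their calls in 12 and 6 of the alternatives. The cause of these changes was not tested. Copies of one gene, few counts per gene in Empty and an unstated use of strand limit what single genes show. Such copies also limit what the sums and shares show.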

Other observations

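Histone genes whose symbols fall outside the name rule were looked at after the values of the others were seen. H2AW had 125, 157 and 213 counts in Empty and 1886, 1441 and 1644 in LINC00862 (log2 fold change 3.41), H2BU1 had 4, 4 and 10 against 87, 73 and 87 (3.84), and H4-16 had 18, 4 and 0 against 101, 120 and 98 (3.98). H2AJ, an H2A gene known to give polyadenylated mRNA, rose from 3.53, 5.50 and 6.15 FPKM to 19.3, 19.1 and 19.7 FPKM (log2 fold change 2.10). MACROH2A1, a large H2A variant of silent chromatin, was lower (-0.44), and MACROH2A2 was not called (0.48). H3-5 fell from 92, 163 and 99 counts to 48, 22 and 13 (-2.06). The H2B pseudogenes H2BC19P and H2BC20P were higher, with log2 fold changes of 3.93 and 4.31, and reads may be shared with the H2B genes they resemble. Calls come from edgeR's quasi-likelihood test at a false discovery rate of 0.05.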
